A study of Mus musculus with 9 samples.

Results

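Complement genes were followed in mouse bone marrow derived macrophages after exposure to the organotins TMT and TET. The set was a list of 10 gene symbols naming components of the cascade and its receptors: C1qa, C1qb, C1qc, C3, Cfb, Cfp, C3ar1, C5ar1, Itgam and Itgax. A member entered through probe sets whose platform annotation names that gene alone, and its brightest probe set over all 9 arrays stood for it. That gave 9 members of the 18193 genes in the table, and C3 was not analysed here. All cells were primary cultures from C57BL6 mice aged 6 to 12 weeks. They were grown in medium conditioned by L929 cells, which supply the macrophage growth factor CSF-1, and were moved to medium without it on the day before use. On day 6 in vitro every culture, controls included, received 33 ng/mL ultrapure LPS (lipopolysaccharide, a bacterial signal that switches on inflammatory genes) for 3 h. TMT OH (trimethyltin hydroxide) at 1.25 µM, TET Br (triethyltin bromide) at 10 µM or sterile saline was then added for 6 h, with 3 replicates in each of the 3 groups. No culture without LPS was measured, so every value describes primed cells. The doses of the 2 organotins differ, and so a difference between TET and TMT arrays is one between the exposures as given.

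Complement is a set of plasma proteins that tag microbes and dying cells, and macrophages make several of them locally. C1q, assembled from the products of C1qa, C1qb and C1qc, starts the classical pathway when it binds antibody or altered surfaces. Factor B, from Cfb, supplies the protease of the alternative pathway convertase, and properdin, from Cfp, stabilises that convertase. Cleavage of the central components releases the small peptides C3a and C5a, which act on the receptors of C3ar1 and C5ar1. Itgam and Itgax encode the alpha chains of complement receptors 3 and 4 (CD11b and CD11c), integrins that take up particles coated with cleaved C3 and that share the beta chain of Itgb2.

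The members lie in groups on the chromosomes, and the promoters of 2 such groups are shown because neighbouring genes in them can be set side by side. C1qb, C1qc and C1qa are consecutive protein-coding genes on chromosome 4, Itgam and Itgax are consecutive on chromosome 7, and Cfb lies next to C2 on chromosome 17. RefSeq windows (GRCm38.p6) matched 7 of the 9 members, all but C1qa and Cfb. The 250 bases before the annotated start of Itgam (chr7:128062390-128062639, plus strand), Itgax (chr7:128129300-128129549, plus strand), C1qb (chr4:136886201-136886450, minus strand) and C1qc (chr4:136892915-136893164, minus strand) read, in the direction of the gene:
Itgam: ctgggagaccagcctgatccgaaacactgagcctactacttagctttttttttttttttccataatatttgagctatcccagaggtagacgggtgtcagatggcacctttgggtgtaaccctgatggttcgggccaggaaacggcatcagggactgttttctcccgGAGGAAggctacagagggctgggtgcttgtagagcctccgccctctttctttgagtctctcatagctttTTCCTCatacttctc
Itgax: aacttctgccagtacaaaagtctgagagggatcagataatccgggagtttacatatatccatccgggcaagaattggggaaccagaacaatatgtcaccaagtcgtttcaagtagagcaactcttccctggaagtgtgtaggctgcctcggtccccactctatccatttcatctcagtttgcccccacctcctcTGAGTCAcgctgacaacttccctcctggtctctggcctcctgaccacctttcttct
C1qb: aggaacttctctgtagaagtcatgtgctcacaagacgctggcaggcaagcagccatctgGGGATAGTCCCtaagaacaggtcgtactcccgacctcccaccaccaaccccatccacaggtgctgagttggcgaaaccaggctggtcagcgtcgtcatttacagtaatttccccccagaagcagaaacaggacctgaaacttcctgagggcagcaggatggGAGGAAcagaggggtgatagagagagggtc
C1qc: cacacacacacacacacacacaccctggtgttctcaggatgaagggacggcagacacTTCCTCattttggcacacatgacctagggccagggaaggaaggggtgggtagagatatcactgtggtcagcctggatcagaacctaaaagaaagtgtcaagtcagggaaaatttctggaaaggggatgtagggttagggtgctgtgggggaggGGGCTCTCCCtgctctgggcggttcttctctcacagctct
Capitals mark matches, on either strand, to the motifs searched: the PU.1 core GAGGAA, the NF-kB motif (GGGA and CC with 4 free bases between), the interferon-response motif (GAAA and GAAA with 2 free bases between), the AP-1 motif TGANTCA, the heat shock motif (GAA, TTC and GAA with 2 free bases between each), the ATF4 composite motif TGATGNAA and the C/EBP motif TTNNGCAA. The Itgam window held 2 matches to GAGGAA, which begin 84 and 15 bases before the start, and 23.3% of all 32851 windows of this length hold at least 1. The Itgax window held 1 match, to TGANTCA, beginning 56 bases before the start, and 6.75% of all windows hold that motif. C1qb and C1qc each held GAGGAA and the NF-kB motif, the latter present in 17.6% of all windows. In C1qb the 2 NF-kB matches overlap each other, on opposite strands. No member window held the interferon-response motif (2.98% of all windows), the heat shock motif (0.466%), the ATF4 motif (3.45%) or the C/EBP motif (9.56%). These are matches of letters within 250 bases, not measured binding.

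Values are log2 signals of Affymetrix arrays, a difference between groups is a log2 fold change, and errors of group means are SD with n = 3. A gene passed at an adjusted p under 0.05 in limma, with Benjamini-Hochberg adjustment over all 18193 genes. The labels call the replicates biological without naming separate animals, so the p-values describe the scatter among these cultures, which may be partly technical. With 3 arrays against 3, the smallest p an exact permutation test allows is 0.1. In bulk RNA, fewer cells of a type and less RNA per cell cannot be told apart. TMT replicate 2 was the lowest TMT array in 9 of 9 members, against 43.8% of genes at or above the median brightness, and TET replicate 1 the lowest TET array in 7 of 9, against 41.9%. Among the saline arrays, the reference of both comparisons, replicate 2 was lowest in 7 of 9 members (28.5% of those genes) and replicate 1 highest in 8 of 9. Replicates scattered least in saline, where a typical gene had an SD of 0.0907, more under TMT (0.118) and most under TET (0.171). The interquartile range of an array was 3.83 to 3.88 in saline, 3.78 to 3.86 under TMT and 3.45 to 3.55 under TET. The labelled cell type was checked on Csf1r (14.26 ± 0.0051 in saline, SD, n = 3) and Adgre1 (12.89 ± 0.059), which encode the CSF-1 receptor and a macrophage surface antigen. Of 7 measured macrophage markers, 1 rose and 2 fell under TMT, against 14.3% and 13.4% of all genes. Under TET 1 of the 7 rose and 4 fell, against 27.4% and 23.4% of all genes. Their summed linear signals were 77818 to 80766 in saline, 70844 to 83476 under TMT and 63534 to 70760 under TET.

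TMT against saline asked which mRNAs of primed cells differ after an exposure meant to activate the NLRP3 inflammasome, the complex that matures interleukin-1 beta. Under TMT the convertase protease gene Cfb, the properdin gene Cfp and the CD11b gene Itgam rose, and the CD11c gene Itgax fell. Those 4 of 9 members passed, against 27.8% of all genes (14.3% rose and 13.4% fell). All 9 members are at or above the median brightness, and in a fit of the 9097 such genes alone 5 of 9 members passed (C5ar1 was added) against 50.9% of those genes, so the members' share is near that of genes as bright. The median difference over the 9 was 0.00, against 0.01 over all genes. The 3 TMT arrays lay wholly outside the saline range in 5 of 9 members, against 44.7% of all genes (23.7% above and 21.0% below). TET against saline asked the same of the ethyl compound at its higher dose. Under TET Cfb and Itgax rose, and C1qa, C1qc and C5ar1 fell. Those 5 of 9 members were a share near the 50.8% of all genes that passed (27.4% rose and 23.4% fell). Among the 9097 brighter genes the count was again 5 of 9, against 66.7% (24.2% rose and 42.5% fell). Centring the arrays on their medians also turned the split over all genes, to 3742 that rose and 4782 that fell, and left 2 members higher and 3 lower. The median over the 9 was −0.21, against 0.09 over all genes, and in 6 of 9 the arrays did not overlap saline, against 58.7% of all genes (32.5% above and 26.1% below). The count under TET fell to 3 without saline replicate 1 and to 3 without TET replicate 1, and in each case C1qa and C1qc were lost. Both comparisons share the saline arrays. Between the exposures, at their different doses, Itgax was higher in TET than in TMT arrays, and Cfb, Cfp and Itgam were lower. Those 4 of 9 members stood against 51.8% of all genes (28.1% higher and 23.7% lower). Among the brighter genes it was 5 of 9 members against 68.9% (26.0% higher and 42.9% lower), and centring on array medians gave 4223 genes higher and 4599 lower. The members had a median of −0.29, against 0.11 over all genes. In 6 of 9 the TET and TMT arrays did not overlap, against 57.0% of all genes (32.5% above and 24.5% below).

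**Figure D1:**
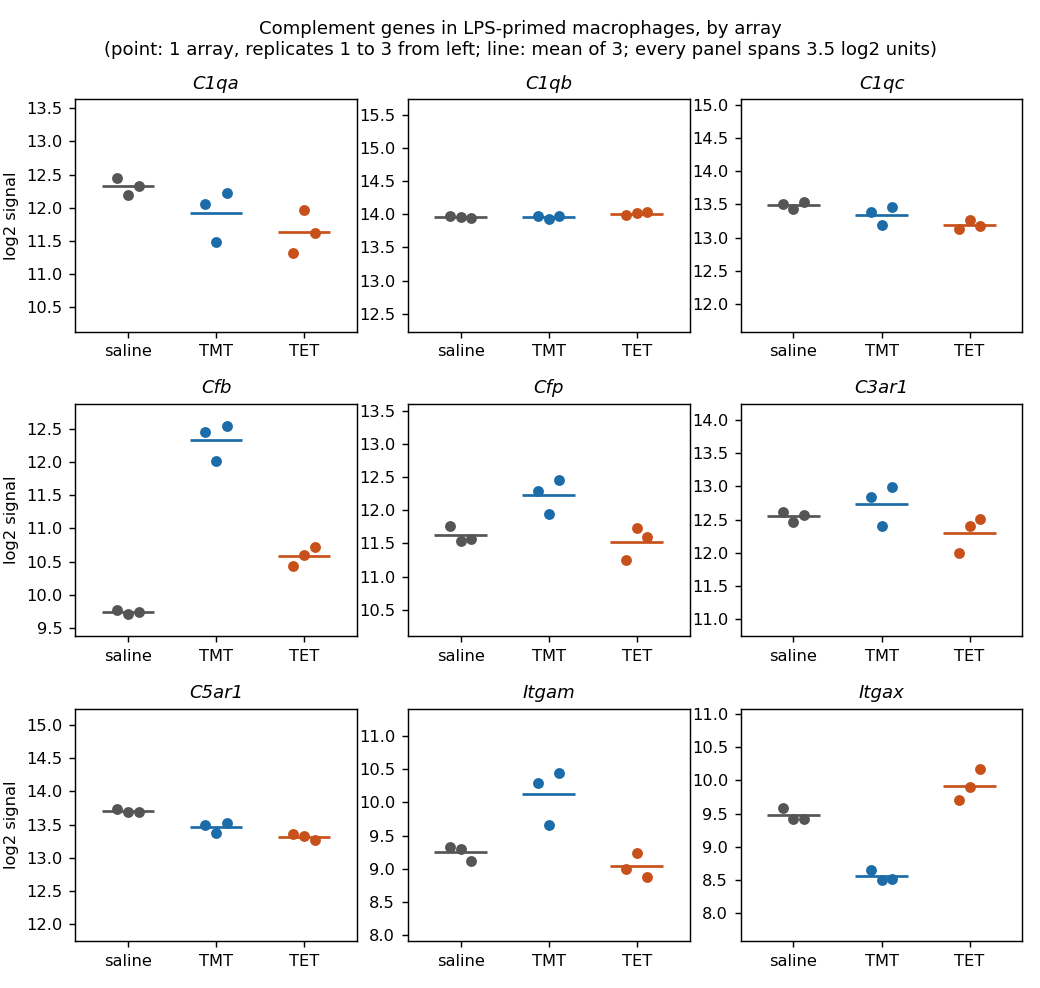
Log2 signal (y axis) of 9 complement genes in each of the 9 arrays, by group (x axis); a point is 1 array and a line the mean of 3, and every panel spans 3.5 log2 units. Cfb is far higher under TMT (12.01 to 12.54) than in saline (9.71 to 9.78), and Itgax lies below saline under TMT and above it under TET.

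Cfb, encoding factor B, had the largest difference from saline under TMT and under TET among the 9 probe sets used. Its log2 signals were 9.78, 9.71 and 9.74 in the saline arrays, 12.45, 12.01 and 12.54 under TMT, and 10.43, 10.60 and 10.73 under TET. The 3 groups did not overlap: TMT was highest in every array, TET intermediate and saline lowest. Under TMT Cfb rose 6.02-fold (2.59, SE 0.14, 95% interval 2.28 to 2.90, adjusted p = 6.4e-07, higher in 3 of 3 arrays). Under TET it rose 1.79-fold (0.84, SE 0.14, interval 0.53 to 1.15, adjusted p = 6.1e-04, higher in 3 of 3). TET arrays were 3.36-fold below TMT arrays (−1.75, SE 0.14, adjusted p = 3.8e-06). Cfb was read by 1 probe set. All 3 calls were kept in each of their 19 alternatives, and without TMT replicate 2 the rise under TMT was 2.75. Several alternatives could not move the estimate, among them other probe set choices and leaving out an array of the group not compared.

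Likeness in pattern was the root mean square difference of saline-centred values over the 9 arrays. It was taken among 9097 genes whose mean over all 9 arrays was at or above the median (6.82). By this measure the genes closest to Cfb were Narf (0.135), Kdm5b (0.163) and Ccdc134 (0.219). Narf (6.45) and Ccdc134 (6.03) were below that median in saline, so the rise that makes them like Cfb also admitted them. Narf, a nuclear prelamin A recognition factor gene, differed from saline by 2.52 under TMT and 0.77 under TET. Kdm5b, encoding a histone H3 lysine demethylase, differed by 2.49 and 0.97, and Ccdc134 by 2.58 and 0.72.

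Cfp, encoding properdin, was 11.76, 11.54 and 11.57 in saline, 12.29, 11.95 and 12.45 under TMT, and 11.25, 11.74 and 11.60 under TET. All TMT arrays lay above the saline range, while the TET arrays spanned it. Cfp rose 1.53-fold under TMT (0.61, SE 0.16, interval 0.26 to 0.96, adjusted p = 0.015). It did not pass under TET (−0.09, SE 0.16, interval −0.44 to 0.26, adjusted p = 0.64). TET arrays were below TMT arrays (−0.70, SE 0.16, adjusted p = 0.0039). The rise under TMT missed the threshold in the limma fit without saline replicate 2 (adjusted p = 0.057), saline replicate 3 (0.055), TMT replicate 1 (0.055) or TMT replicate 3 (0.060), over a range of 4.2e-05 to 0.060 in its 20 alternatives. A second, dimmer probe set of Cfp rose more under TMT, from 7.08 ± 0.20 to 8.31 ± 0.10 (1.23, SE 0.16, adjusted p = 3.7e-04 over all probe sets).

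The 3 genes of C1q gave smaller differences. C1qa, encoding the A chain, was 12.45, 12.20 and 12.33 in saline, 12.06, 11.48 and 12.23 under TMT, and 11.32, 11.97 and 11.63 under TET. Each TET array lay below each saline array, and TMT replicate 3 lay within the saline range. C1qa fell 1.61-fold under TET (−0.69, SE 0.21, interval −1.14 to −0.23, adjusted p = 0.018) and did not pass under TMT (−0.40, SE 0.21, interval −0.86 to 0.06, adjusted p = 0.20). In the limma fit the fall under TET missed the threshold without saline replicate 1 (−0.63, adjusted p = 0.063) and without TET replicate 1 (−0.53, adjusted p = 0.063), and its adjusted p ranged from 0.0062 to 0.063. Without TMT replicate 2 the difference under TMT was −0.18.

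C1qc, encoding the C chain, was 13.51, 13.43 and 13.53 in saline, 13.38, 13.19 and 13.46 under TMT, and 13.13, 13.26 and 13.18 under TET. The TET arrays again lay wholly below saline, and the TMT arrays overlapped it. The gene fell 1.23-fold under TET (−0.30, SE 0.10, interval −0.51 to −0.09, adjusted p = 0.024) and did not pass under TMT (−0.15, SE 0.10, adjusted p = 0.33). The call under TET was lost after cyclic loess (−0.23, adjusted p = 0.056), without saline replicate 1 (adjusted p = 0.070), saline replicate 3 (0.078) or TET replicate 1 (0.059), over a range of 0.0047 to 0.078 in limma.

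C1qb, encoding the B chain, was read at 13.97, 13.96 and 13.94 in saline, 13.98, 13.93 and 13.97 under TMT, and 13.99, 14.01 and 14.03 under TET, close to the largest value of the table (14.8). It passed in neither comparison (0.00, interval −0.17 to 0.17, adjusted p = 1.00 under TMT; 0.05, interval −0.11 to 0.22, adjusted p = 0.58 under TET). This probe set and the next brightest carry names that mark possible binding to related transcripts. The third probe set, without such a name, went from 13.31 ± 0.09 to 13.07 ± 0.31 under TMT and 13.05 ± 0.18 under TET, and did not pass either (−0.24, adjusted p = 0.37; −0.26, adjusted p = 0.20). Its estimate has the sign of C1qa and C1qc, and that of the brighter pair does not. Of the 3 neighbouring C1q genes, C1qa and C1qc fell under TET.

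The genes closest to C1qa in pattern were Tomm40 (0.0538), encoding the mitochondrial import pore, Nfkb2 (0.107), encoding an NF-kB subunit precursor, and Ptbp1 (0.108), encoding a splicing regulator. They differed from saline by −0.46, −0.44 and −0.42 under TMT and by −0.69, −0.61 and −0.82 under TET.

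Of the peptide receptors, C5ar1 was lower and C3ar1 gave no call in its brightest probe set. C5ar1, encoding the receptor of the chemoattractant C5a, was 13.73, 13.69 and 13.69 in saline, 13.49, 13.38 and 13.53 under TMT, and 13.36, 13.33 and 13.26 under TET. No array of either exposure reached the saline range. C5ar1 fell 1.31-fold under TET (−0.39, SE 0.08, interval −0.57 to −0.20, adjusted p = 0.0029), a call kept in its 20 alternatives. Under TMT it just missed the threshold (−0.24, SE 0.08, interval −0.42 to −0.06, adjusted p = 0.0505), and it passed in 9 of its 20 alternatives (adjusted p from 0.0032 with the mean over probe sets to 0.15). The other probe set of C5ar1 gave 12.03, 11.63 and 11.76 in saline, 10.88, 10.05 and 11.09 under TMT, and 10.15, 10.44 and 10.22 under TET. There the fall was 2.19-fold under TMT (−1.13, SE 0.24, adjusted p = 0.0058 over all probe sets) and 2.91-fold under TET (−1.54, SE 0.24, adjusted p = 4.6e-04). The 2 probe sets share their direction and differ in size.

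C3ar1, encoding the receptor of C3a, was 12.62, 12.46 and 12.57 in saline, 12.84, 12.40 and 12.99 under TMT, and 11.99, 12.40 and 12.51 under TET. TMT replicate 2 lay below the saline range while the other TMT arrays lay above it. C3ar1 passed neither under TMT (0.19, SE 0.17, interval −0.19 to 0.57, adjusted p = 0.50) nor under TET (−0.25, SE 0.17, interval −0.63 to 0.13, adjusted p = 0.25). Leaving out 1 array moved these from 0.07 (without TMT replicate 3) to 0.36 (without TMT replicate 2) and from −0.35 (without TET replicate 3) to −0.09 (without TET replicate 1). TET arrays were lower than TMT arrays by a difference at the threshold (−0.44, SE 0.17, adjusted p = 0.053), which passed in 10 of 21 alternatives, among them the fit without TMT replicate 2 (−0.61, adjusted p = 0.010) and the replicate block (adjusted p = 0.049). The dimmest of its 3 probe sets rose under TMT, from 12.13 ± 0.04 to 12.55 ± 0.02 (0.42, SE 0.10, adjusted p = 0.0094 over all probe sets), and the remaining probe set did not pass (−0.04, adjusted p = 0.90).

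**Figure D2:**
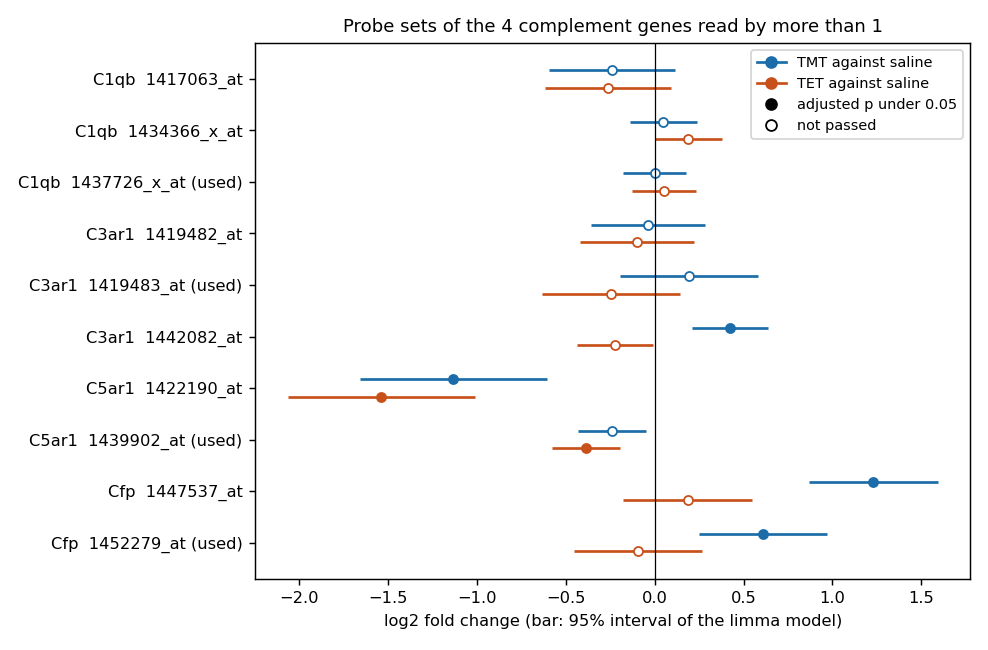
Log2 fold change against saline (x axis) of every probe set of C1qb, C3ar1, C5ar1 and Cfp (y axis), with 95% intervals from limma over all 45037 probe sets; filled points passed at an adjusted p under 0.05 and TMT and TET are set apart by colour. The dimmer probe set of C5ar1 lies at −1.13 and −1.54, beyond the −0.24 and −0.39 of the one used.

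The integrin genes Itgam and Itgax, neighbours on chromosome 7 whose promoters are printed above, moved apart under TMT. Itgam, encoding CD11b, was 9.33, 9.30 and 9.11 in saline, 10.29, 9.66 and 10.45 under TMT, and 9.001, 9.24 and 8.88 under TET. Every TMT array lay above the saline range, with TMT replicate 2 the closest to it, and the TET arrays overlapped saline. Itgam rose 1.85-fold under TMT (0.89, SE 0.19, interval 0.47 to 1.302, adjusted p = 0.0049) and did not pass under TET (−0.21, SE 0.19, interval −0.62 to 0.21, adjusted p = 0.38). Without TMT replicate 2 the rise was 1.12. TET arrays were 2.13-fold below TMT arrays (−1.09, SE 0.19, adjusted p = 7.6e-04).

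Itgax, encoding CD11c, was 9.59, 9.42 and 9.42 in saline, 8.66, 8.50 and 8.51 under TMT, and 9.70, 9.90 and 10.17 under TET. The 3 groups did not overlap, with TMT lowest and TET highest. Itgax fell 1.89-fold under TMT (−0.92, SE 0.12, interval −1.19 to −0.65, adjusted p = 2.6e-04, lower in 3 of 3 arrays) and rose 1.36-fold under TET (0.45, SE 0.12, interval 0.17 to 0.72, adjusted p = 0.012, higher in 3 of 3). TET arrays were 2.58-fold above TMT arrays (1.37, SE 0.12, adjusted p = 8.8e-06). These calls held in all 19 alternatives of each comparison, and the rise under TET ranged from 0.33 to 0.73. As Itgax was read by 1 probe set, other probe set choices could not move its estimates. Itgax was the single member that passed in opposite directions under the 2 exposures.

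Itgb2, encoding the beta chain that pairs with both, was 12.65, 12.54 and 12.55 in saline, 12.86, 12.63 and 12.89 under TMT, and 12.49, 12.61 and 12.65 under TET. The groups overlapped, and Itgb2 passed neither under TMT (0.22, SE 0.10, interval 0.00 to 0.43, adjusted p = 0.14) nor under TET (0.01, interval −0.21 to 0.22, adjusted p = 0.96). CD11b also marks neutrophils and CD11c dendritic cells, and the markers of both were read. Among 8 measured neutrophil and precursor markers, Mpo, Elane, Ltf and Cxcr2 averaged below the median brightness of genes (6.82). Of the 8 markers 0 rose and 4 fell under TMT, against 14.3% and 13.4% of all genes. Under TET 0 of them rose and 4 fell, against 27.4% and 23.4% of all genes. Their summed linear signal was 3430 to 4046 in saline, 2464 to 3460 under TMT and 1963 to 2172 under TET, and its part in the rise of Itgam was not tested. Most of that sum came from S100a8 (10.36 in saline) and S100a9 (10.86), as the other markers averaged at most 7.81 there. These 2 genes differed from saline in opposite directions under TMT, S100a8 by 0.45 (adjusted p = 0.052) and S100a9 by −1.70 (adjusted p = 1.8e-05). Of 5 dendritic cell markers 0 passed under TMT, against 27.8% of all genes. Under TET 2 of the 5 rose, Flt3 from 4.63 to 4.96 and Xcr1 from 5.16 to 5.80, against 27.4% of all genes. In saline Flt3 lay among the dimmest 20% of genes (2.22 to 4.71). The summed signal of the 5 was 193 to 220 in saline, 191 to 214 under TMT and 204 to 288 under TET, and its part in the rise of Itgax was not tested. Markers of other cell types also rose under TET: 2 of 3 for B cells, 1 of 4 for T and NK cells and 1 of 2 erythroid ones. That stands against 27.4% of all genes. Those that rose averaged 4.28 to 5.88 in saline, below the median brightness of genes. Of 5 stromal markers 3 rose (Col1a1 at 7.32, Col1a2 at 6.53 and Cxcl12 at 5.41 in saline) and 1 fell, against 27.4% and 23.4% of all genes. Of 4 mast cell and basophil markers 0 passed, against 50.8% of all genes. Mertk, a macrophage receptor for dying cells, passed in the directions of Itgax, with −0.74 under TMT (adjusted p = 2.5e-04) and 0.38 under TET (adjusted p = 0.0089). No other of the 7 measured macrophage markers passed in both of these directions, and 4 of the 7 fell under TET.

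**Figure D3:**
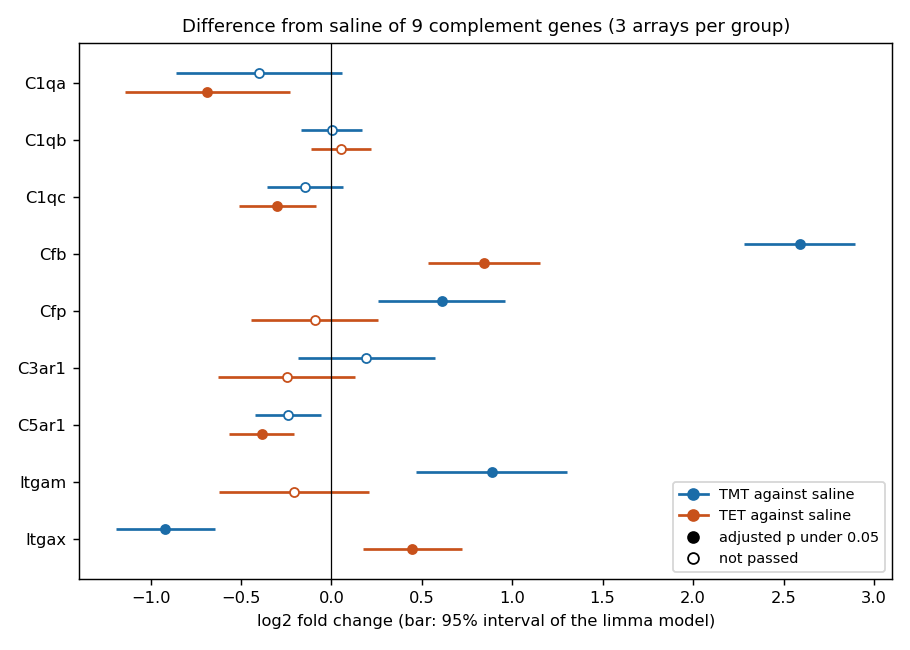
Log2 fold change against saline (x axis) of 9 complement genes (y axis) under TMT and TET, 3 arrays per group, with 95% intervals of the limma model; filled points passed at an adjusted p under 0.05. Cfb stands at 2.59 under TMT, and Itgax lies at −0.92 under TMT and 0.45 under TET.

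A list of 46 other complement genes, drawn from textbook membership, had 37 measured genes. Under TMT 1 of 37 rose, 5 fell and 31 did not pass, against 27.8% of all genes, with a median of −0.02. Under TET 12 rose, 5 fell and 20 did not pass, against 50.8%, with a median of 0.12. The excess of rises depended on the scaling: 8 rose and 7 fell after centring on array medians, 9 and 6 after quantile normalization, and 8 and 6 after cyclic loess. Of the 37, 9 lay among the dimmest 20% of genes in saline (2.22 to 4.71), and the table holds no detection call for them. In a fit of the 9097 brighter genes alone, 4 of the 12 genes of the list among them rose and 5 fell under TET. Of all those brighter genes, 24.2% rose and 42.5% fell. Brightness is the mean over all 9 arrays, with a median of 6.82. Clu (6.16 in saline, 8.61 under TET) and C8b (6.72 and 7.01) averaged below it in saline and under TMT, and entered only through their TET arrays. With array weights 16 of 37 passed under TMT, where 8756 of all 18193 genes passed in that setting.

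C2 rose and Fcna fell under TMT, and Masp1 and Hc rose under TET. C2, the classical pathway relative and neighbour of Cfb, was 5.51, 5.81 and 5.85 in saline, 6.63, 6.46 and 6.11 under TMT, and 5.84, 5.61 and 6.09 under TET. It rose 1.60-fold under TMT, with all arrays above saline (0.68, SE 0.17, adjusted p = 0.011), and did not pass under TET (0.12, adjusted p = 0.55). That probe set may bind related transcripts, as may another of C2, which rose by 1.17 under TMT (adjusted p = 0.029 over all probe sets). The 1 probe set of C2 without such a name, dim in saline (4.36), did not pass (0.28, adjusted p = 0.25 over all probe sets). Masp1, encoding a lectin pathway protease, rose 2.38-fold under TET (1.25, SE 0.21, adjusted p = 7.8e-04), from 9.18 ± 0.40 to 10.43 ± 0.13. A dimmer probe set of Masp1 rose more under TET, from 3.83 ± 0.07 to 6.02 ± 0.15 (2.19, adjusted p = 7.9e-07 over all probe sets). Both of these have names that mark related transcripts. The other 3 did not pass under TET (0.13, 0.32 and 0.35), and that at 0.32 has such a name too. Fcna, encoding ficolin A, which recognises sugars for the lectin pathway, fell 1.28-fold under TMT (−0.36, SE 0.10, adjusted p = 0.020). Hc, encoding C5, was listed at 4.04 ± 0.05 in saline, among the dimmest 20% of genes, and rose to 4.50 ± 0.12 under TET (0.46, adjusted p = 0.0017).

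Of genes whose products bind C1q or sugars, Cd93, C1qbp and Colec12 fell under TMT, as did Fcna. Others of that kind (Calr, Mbl1, Mbl2, Fcnb, Colec10 and Colec11) did not pass under TMT. Cd93, encoding a membrane lectin first described as a C1q receptor, was 12.33, 12.33 and 12.44 in saline, 11.17, 10.96 and 11.35 under TMT, and 11.07, 11.31 and 11.22 under TET. Neither exposure overlapped saline. It fell 2.31-fold under TMT (−1.21, SE 0.11, adjusted p = 2.4e-05) and 2.24-fold under TET (−1.17, SE 0.11, adjusted p = 1.8e-05), and all 5 of its probe sets fell in each comparison. C1qbp, encoding a mostly mitochondrial protein that binds C1q, fell 1.87-fold under TMT (−0.91, SE 0.11, adjusted p = 1.7e-04) and did not pass under TET (−0.28, adjusted p = 0.062). Its other probe set, without a name that marks related transcripts, fell in both (−1.42 under TMT; −0.33, adjusted p = 0.035 over all probe sets, under TET). Colec12, encoding a scavenger collectin, fell 2.77-fold under TMT (−1.47, SE 0.22, adjusted p = 5.1e-04) and 2.23-fold under TET (−1.16, SE 0.22, adjusted p = 0.0014). The other falls under TET, which lie outside the naming rule and were singled out once their values were seen, were Calr (−0.54) and C1ra (−0.51), and 1 of the 2 probe sets of Masp2. That probe set was 6.31 ± 0.04 in saline and 5.51, 5.05 and 3.74 under TET (−1.54), while the other passed in the opposite direction (0.34, adjusted p = 0.012 over all probe sets). The rises under TET that lie outside the naming rule were Vtn (0.94), Mbl1 (0.62), Colec11 (0.45), C4bp (0.41), Cpn2 (0.33), Cr2 (0.32) and C8b (0.29). All of these were dim in saline, from 3.51 for C4bp to 6.72 for C8b, below the median brightness of genes (6.82).

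Among regulators, Clu, encoding clusterin, a chaperone that also blocks the terminal complex, was 6.18, 6.07 and 6.24 in saline, 6.52, 6.52 and 6.27 under TMT, and 9.01, 8.69 and 8.12 under TET. It rose 5.45-fold under TET (2.45, SE 0.19, adjusted p = 3.6e-06) and did not pass under TMT (0.27, SE 0.19, adjusted p = 0.36). All 4 of its probe sets rose under TET, by 1.40 to 3.23, and the weakest of these was the only one without a name that marks related transcripts. Cd59a, which protects cells from the terminal pore, fell 1.78-fold under TMT (−0.83, SE 0.14, adjusted p = 0.0013) and rose 1.31-fold under TET (0.39, SE 0.14, adjusted p = 0.043), with 1 TET array at the top of the saline range. Cpn1, encoding the carboxypeptidase that trims C3a and C5a, was dim in saline (5.61). It rose 1.70-fold to 6.37 under TET (0.76, SE 0.12, adjusted p = 3.8e-04) and did not pass under TMT (−0.05, adjusted p = 0.83). Cd55, encoding decay-accelerating factor, gave no call in its main probe set (−0.25, adjusted p = 0.53 under TMT; −0.12, adjusted p = 0.69 under TET), while the 2 others fell in both comparisons, by 0.39 and 0.73 under TMT and by 0.66 and 1.05 under TET. All probe sets of Cd55 were dim in saline (4.03 to 5.61).

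**Figure D4:**
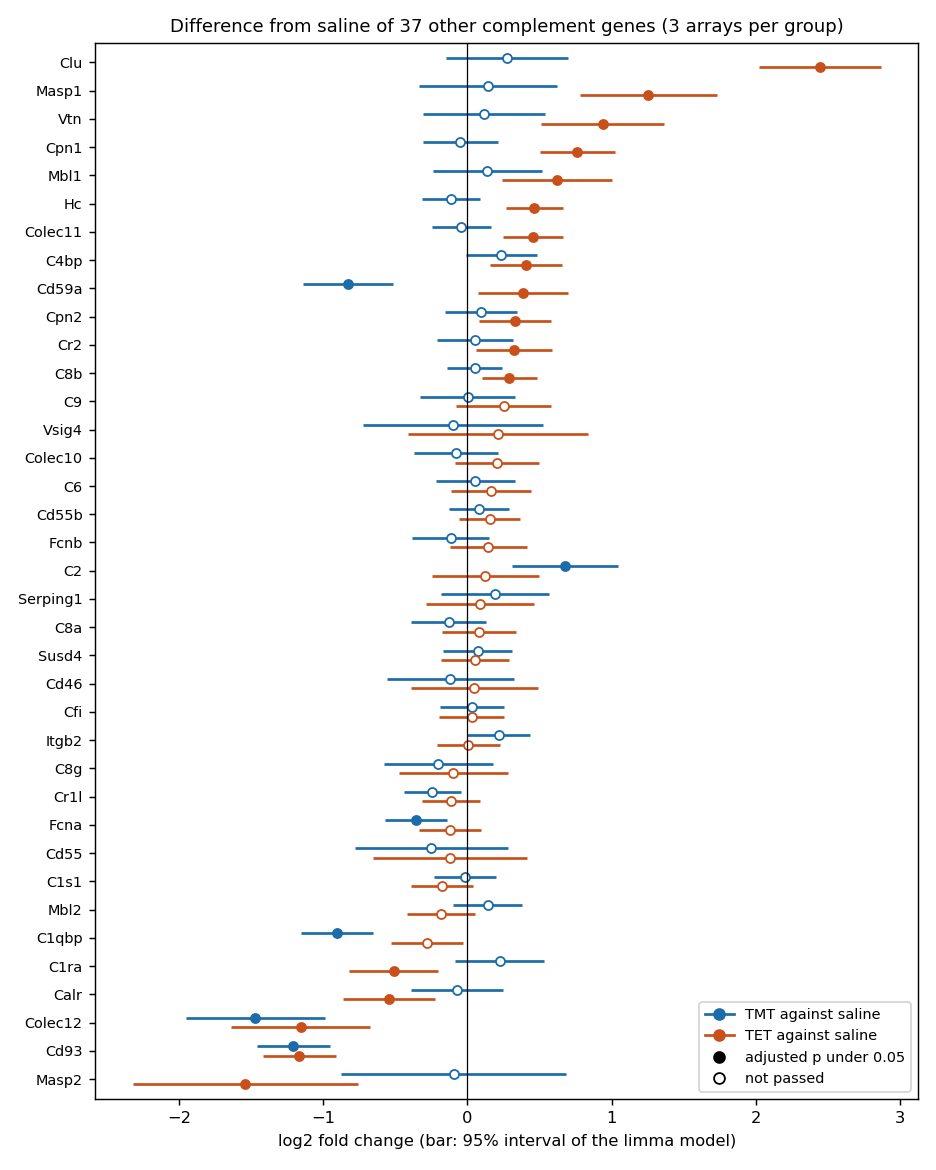
Log2 fold change against saline (x axis) of 37 other complement genes (y axis, ordered by the TET value) under TMT and TET, 3 arrays per group, with 95% intervals of the limma model; filled points passed at an adjusted p under 0.05. Clu lies at 2.45 under TET, and Cd93 and Colec12 lie to the left of zero under both exposures.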

How the data were processed

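Per the labels' protocols, each culture gave 50 ng of total RNA, which a Nugen kit amplified for Affymetrix mouse expression arrays. The authors deposited 1 log2 value per probe set and array. Per the submitters' processing notes these came from RMA and affy. Their versions were not given in the sources used here, nor whether all 9 arrays were processed together. The base of the logarithm was taken from the range of the values (2.05 to 14.8). The table was used as deposited.

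Of 45037 probe sets, 34945 name 1 gene in the platform annotation, 932 name several and 9160 none. The probe sets naming 1 gene gave 18193 genes, each read by its brightest probe set. Groups came from the sample titles. Group means were estimated jointly over all 9 arrays with limma 3.58.1 in R 4.3.3 (6 residual and 3.99 prior degrees of freedom), and the fit was tested on simulated data. Precision is limited by how many arrays there are. Single probe sets were fitted among all 45037. Of the other complement genes, the naming rule took up to 6 passing genes per comparison with saline, by adjusted p, besides Itgb2, C2, Hc and Cd55. The remaining genes of the list that passed under TET are named outside that rule. The rule also asked for genes like Cfb, C1qa and C3 in pattern, and the last, like C5ar2, was not analysed here. Members, lists and tests were chosen with earlier results of these data known. Alternatives were other probe set choices, a filter on dim genes, 3 other scalings, array weights, trended robust moderation, the 6 arrays of a comparison alone, a replicate block and leaving out each array.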

Additional observations from a re-analysis of the deposited data

How the results depend on the processing

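Of 27 differences of single members (9 genes in 3 comparisons), 19 kept their side of the threshold in every alternative, and no called difference reversed its sign. For members read by 1 probe set, other probe set choices could not move the estimate. The number of passing members ranged over the alternatives from 3 to 6 under TMT (main 4), from 3 to 5 under TET (main 5) and from 4 to 6 for TET against TMT (main 4). Leaving out 1 array gave 3 to 5 members under TMT, 3 to 5 under TET and 4 to 6 for TET against TMT. It gave 4 to 7 other complement genes under TMT and 13 to 18 under TET. Over all genes it gave 3971 to 5522, 7540 to 9372 and 8006 to 9232. With array weights 8756 genes and 16 other complement genes passed under TMT, against 5049 and 6. With genes at or above the median brightness alone, fewer genes were tested (9097), and 6066 passed under TET, 6270 for TET against TMT and 9 other complement genes under TET, against 9247, 9425 and 17. Same-numbered arrays of different groups showed no steady tie (correlations from −0.15 to 0.31, against −0.30 to 0.26 for differently numbered arrays), so the numbers were not taken as pairs. The highest value was that of replicate 2 in saline and TMT, the arrays lowest in 7 of 9 and 9 of 9 members. With the replicate number as a block, 4859 genes passed under TMT, 8956 under TET and 9119 for TET against TMT, and 4, 5 and 5 members, the added one being C3ar1.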
